A study of Mus musculus with 4 samples.

Results

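The SOCS family (suppressors of cytokine signalling) comprises *Cish* and *Socs1* to *Socs7*, and the 8 genes were taken by symbol from a table of 23920 genes, where they are represented by 12 of 33170 transcripts. All 8 reached 1 FPKM (fragments per kilobase of transcript, scaled to the mapped fragments of the library) in 1 library or more and were among the 10763 genes compared. The table comes from bulk RNA sequencing of mouse bone marrow-derived macrophage-like cells (BMMs), the precursors from which osteoclasts are grown in culture, after 24 h. There were 4 libraries, 1 per condition. One library, called the cKO library below, was of *Stat5* cKO cells given RANKL + IL-3. The other 3 were of Stat5fl/fl control cells given RANKL + IL-3, RANKL, or M-CSF alone. M-CSF was in every culture at 30 ng/mL, and where added RANKL was used at 100 ng/mL, IL-3 at 1 ng/mL. All cells carried floxed *Stat5a* and *Stat5b* in C57BL/6 mice labelled as male and 8 weeks old, whereas the methods give 6 weeks for the osteoclast cultures. The cKO cells also carried Mx1-Cre, whose promoter responds to interferon and acts across blood-forming cells and other tissues rather than in osteoclasts alone. Mice of both genotypes had received poly(I:C), the inducer of the transgene. No *Stat5* cKO library with RANKL or M-CSF alone was analysed here.

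Cytokines such as IL-3 bind receptors that carry JAK kinases, which phosphorylate the receptor and then STAT transcription factors. Many STAT targets switch the same pathway off again, and the SOCS family is the best known group of such feedback inhibitors. Each member holds an SH2 domain, which binds phosphorylated tyrosines, and a C-terminal SOCS box, which binds elongins B and C and, through them, the Cullin 5 ubiquitin ligase with its RING subunit Rnf7. *Cish* encodes CIS, the founding member, which with SOCS2 binds docking tyrosines of cytokine receptors, SOCS2 being the main brake on growth hormone signalling. SOCS1 and SOCS3 also carry a kinase inhibitory region that blocks JAKs. SOCS1 chiefly restrains interferon signalling and SOCS3 the receptors that share gp130 and the G-CSF receptor. SOCS4 and SOCS5 have been tied to the EGF receptor, and SOCS6 and SOCS7 to insulin and other tyrosine kinase signalling. In osteoclast precursors, SOCS1 and SOCS3 are known to protect differentiation from inhibitory cytokines.

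Dimers of STAT5 bind the palindrome TTCNNNGAA, in which N is any base. RefSeq promoter windows of 300 bases were used (GRCm38.p6, 250 bases before to 50 bases from the start site onwards). They were searched for 4 of the 8 genes, *Cish*, *Socs1*, *Socs3* and *Socs4*. No window of *Socs2*, *Socs5*, *Socs6* or *Socs7* was searched, so nothing can be said of matches in those genes. Because the motif reads the same on both strands, a match counts for both. It was found in 8.29% of 32817 windows, and 0.457% held at least 2 matches. The windows of *Cish* (chr9:107296409-107296708, plus strand), *Socs3* (chr11:117969317-117969616, minus strand) and *Socs1* (chr16:10785487-10785786, minus strand) are shown because these genes carry the main differences below, with matches in capitals.
Cish: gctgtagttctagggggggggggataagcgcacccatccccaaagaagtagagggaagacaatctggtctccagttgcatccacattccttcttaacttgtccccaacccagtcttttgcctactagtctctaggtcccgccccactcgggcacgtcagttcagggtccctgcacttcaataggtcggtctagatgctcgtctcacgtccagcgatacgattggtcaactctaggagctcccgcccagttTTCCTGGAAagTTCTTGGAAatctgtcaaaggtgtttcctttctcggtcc
Socs3: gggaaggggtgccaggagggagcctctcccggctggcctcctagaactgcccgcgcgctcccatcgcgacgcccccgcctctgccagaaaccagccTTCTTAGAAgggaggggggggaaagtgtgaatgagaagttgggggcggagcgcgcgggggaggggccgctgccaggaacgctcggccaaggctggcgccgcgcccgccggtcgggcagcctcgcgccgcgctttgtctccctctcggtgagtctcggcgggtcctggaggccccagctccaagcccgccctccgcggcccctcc
Socs1: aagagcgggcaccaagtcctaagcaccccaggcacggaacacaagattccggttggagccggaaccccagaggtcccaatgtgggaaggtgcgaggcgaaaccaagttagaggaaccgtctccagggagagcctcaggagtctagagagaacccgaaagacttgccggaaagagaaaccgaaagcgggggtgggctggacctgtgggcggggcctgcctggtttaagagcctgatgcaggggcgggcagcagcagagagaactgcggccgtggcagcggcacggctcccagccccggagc
The *Cish* window held 2 matches, TTCCTGGAA beginning at the annotated start site and TTCTTGGAA beginning 11 bases after it. The *Socs3* window held 1 match, TTCTTAGAA, which begins at position -154 from the start site. The windows of *Socs1* and *Socs4* (chr14:47276670-47276969, plus strand) held 0 matches of these letters. A match is only a run of letters, and no binding was measured.

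The targeted genes were checked first. *Stat5a* was at 0.168 FPKM in the cKO library, against 12.0 FPKM with RANKL + IL-3, 10.8 FPKM with RANKL and 9.89 FPKM with M-CSF in Stat5fl/fl cells. *Stat5b* was at 0.191 FPKM in the cKO library, against 8.86, 7.80 and 10.8 FPKM in the same 3 Stat5fl/fl libraries. Both genes were therefore nearly absent from the cKO library and present in all 3 controls. The labels give male mice, but *Xist*, which is transcribed from the inactive X chromosome of females, lay between 31.9 and 47.0 FPKM in the 4 libraries, and 4 of 4 Y-linked genes were at 0 in all of them. The 4 libraries did not differ from each other in this. The macrophage markers *Csf1r*, *Cd68*, *Itgam* and *Lyz2* were all expressed, whereas the T cell markers summed to at most 0.07 FPKM and the B cell markers to at most 1.40 FPKM per library. Neutrophil markers were not absent, and summed to 426 FPKM in the cKO library. In the Stat5fl/fl libraries of RANKL + IL-3, RANKL and M-CSF they summed to 597, 402 and 732 FPKM. Depth, estimated from the steps of low values, was 33.0 to 36.8 M fragments. With 1 library per condition there are no replicates, so no difference between conditions could be tested, and the 95% intervals below are approximate and cover counting error only. In bulk samples, fewer cells that express a gene and less RNA per cell cannot be told apart.

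*Cish* was above 1 FPKM in 1 of the 4 libraries. It was at 0.158 FPKM (interval 0.0865 to 0.278) in the cKO library, against 14.6 FPKM (13.8 to 15.5), 0.069 FPKM and 0.0729 FPKM in the Stat5fl/fl libraries of RANKL + IL-3, RANKL and M-CSF. These values stand for about 13, 1195, 5 and 5 fragments, so the high library is well measured and the other 3 are near the limit of detection. *Cish* overlaps *Gm17040* and *Gm17041*, which lie on the opposite strand, and no source used here says that counting used strand.

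*Socs2* had the same shape with a higher floor. It was at 0.412 FPKM in the cKO library, against 9.22 FPKM with RANKL + IL-3, 0.597 FPKM with RANKL and 0.269 FPKM with M-CSF in Stat5fl/fl cells. The interval of the high library, 8.57 to 9.92 FPKM, was far from those of the other 3, of which the highest ended at 0.808 FPKM. Of the 4 transcripts of *Socs2*, NM_007706 made up 72.3% of the gene in cKO cells and 92.7% in Stat5fl/fl cells given RANKL + IL-3.

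*Socs3* and *Socs1*, the pair with a kinase inhibitory region, had intermediate levels as well. *Socs3* was at 12.4 FPKM in the cKO library, against 30.7 FPKM with RANKL + IL-3, 12.1 FPKM with RANKL and 1.12 FPKM with M-CSF in Stat5fl/fl cells. *Socs1* was at 6.07 FPKM in the cKO library, against 11.8, 5.79 and 0.991 FPKM in the same 3 Stat5fl/fl libraries. In both genes the cKO library with IL-3 and the Stat5fl/fl library without IL-3 were close to each other, above the M-CSF library and below the Stat5fl/fl library with IL-3.

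The other 4 members were expressed at similar levels in every condition. *Socs4* lay between 6.82 and 9.16 FPKM over the 4 libraries, *Socs6* between 9.27 and 12.7 FPKM, and *Socs7* between 3.35 and 4.57 FPKM. *Socs5* was at 7.35 FPKM in the cKO library, against 4.61 FPKM with RANKL + IL-3, 6.89 FPKM with RANKL and 7.21 FPKM with M-CSF in Stat5fl/fl cells. It was thus the 1 member whose lowest value was in Stat5fl/fl cells with IL-3 by a margin wider than the counting intervals, since *Socs7*, also lowest there at 3.35 FPKM (3.13 to 3.59), overlapped its M-CSF value of 3.59 FPKM (3.35 to 3.84). The GENCODE annotation places 3 processed pseudogenes within the span of *Socs6*.

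**Figure D1:**
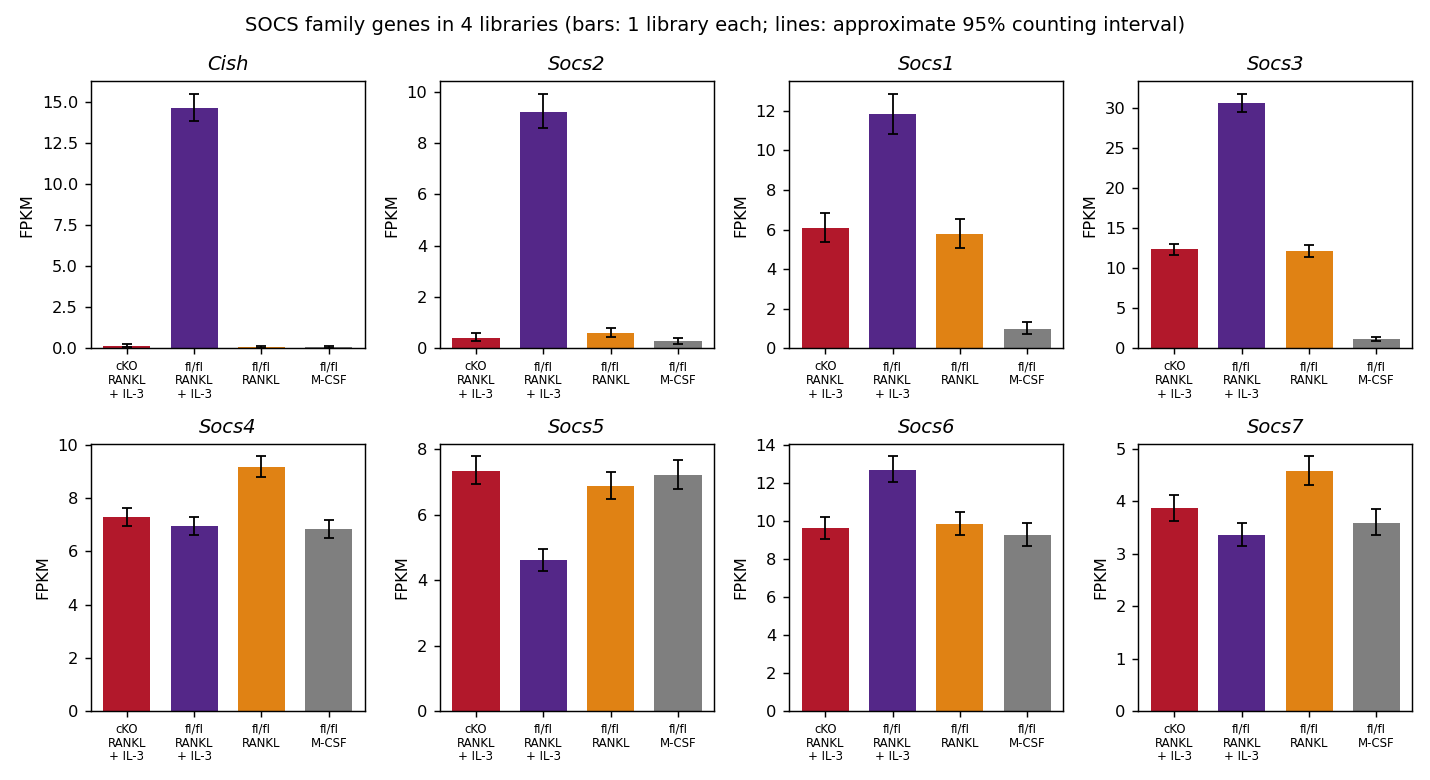
FPKM of the 8 SOCS family genes (1 panel each, own scale) in the cKO library and in the Stat5fl/fl libraries of RANKL + IL-3, RANKL and M-CSF. Bars are single libraries and lines approximate 95% counting intervals. *Cish* stands at 14.6 FPKM and *Socs2* at 9.22 FPKM in 1 library and below 1 FPKM in the rest, while *Socs4* to *Socs7* differ at most 1.59-fold between any 2 libraries.

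FPKM values are per length and can be compared between genes within a library. In Stat5fl/fl cells given RANKL + IL-3 the order of levels was *Socs3* (30.7 FPKM), *Cish* (14.6), *Socs6* (12.7), *Socs1* (11.8), *Socs2* (9.22), *Socs4* (6.94), *Socs5* (4.61) and *Socs7* (3.35). Only *Socs6* and *Socs1* are neighbours whose counting intervals overlap there, at 12.1 to 13.4 and 10.8 to 12.9 FPKM. The length used for *Socs6* leaves out part of its RefSeq span, so its interval may be too wide. In the cKO library *Cish* was the lowest member and *Socs2* the second lowest, and in Stat5fl/fl cells with M-CSF the 4 highest were *Socs6*, *Socs5*, *Socs4* and *Socs7*. *Socs5* (6.79 to 7.66 FPKM) and *Socs4* (6.49 to 7.17 FPKM) could not be ordered with M-CSF. The 8 genes summed to 47.1 FPKM in the cKO library, against 94.0, 49.1 and 29.3 FPKM in the Stat5fl/fl libraries of RANKL + IL-3, RANKL and M-CSF. *Cish* and *Socs1* to *Socs3* contributed 19.0 FPKM in the cKO library, against 66.4, 18.6 and 2.45 FPKM in those 3 libraries. *Socs4* to *Socs7* contributed 28.1 FPKM in the cKO library, against 27.6, 30.5 and 26.9 FPKM. The difference in the family total thus lay in *Cish*, *Socs1*, *Socs2* and *Socs3*.

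**Figure D2:**
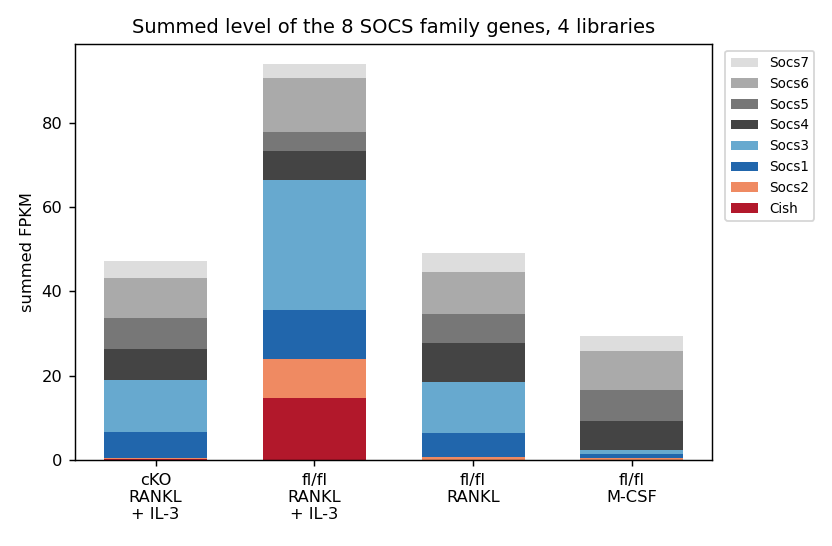
Summed FPKM of the SOCS family genes per library, stacked by gene. The grey block of *Socs4* to *Socs7* stays between 26.9 and 30.5 FPKM, while the coloured block of *Cish* and *Socs1* to *Socs3* is 66.4 FPKM in Stat5fl/fl cells given RANKL + IL-3 and at most 19.0 FPKM in the other 3 libraries.

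The first comparison asks which members depended on STAT5 while IL-3 was present, with cKO set against Stat5fl/fl cells, both given RANKL + IL-3. Genes were compared as log2 ratios of FPKM + 1, and those at least 2-fold apart were counted. *Cish*, *Socs2* and *Socs3* were at least 2-fold lower in the cKO library and 0 members were higher. Among all 10763 genes, 4.28% were at least 2-fold lower and 2.11% at least 2-fold higher. The log2 ratio was -3.76 for *Cish*, which was the 13th lowest of all genes, and -2.86 for *Socs2*, the 40th lowest. It was -1.25 for *Socs3*, the 301st lowest. As plain ratios of FPKM, *Cish* was 92.6-fold lower in cKO (interval 52.5 to 169.9), *Socs2* 22.4-fold lower (15.7 to 32.6) and *Socs3* 2.48-fold lower (2.32 to 2.66). *Socs1*, with a log2 ratio of -0.86, was just outside the threshold, at 1.95-fold lower in cKO by FPKM (1.68 to 2.26). *Socs6* had a log2 ratio of -0.37, *Socs4* of 0.06, *Socs7* of 0.16 and *Socs5* of 0.57, so *Socs5* had the highest log2 ratio of the family in this comparison. The median of the 8 log2 ratios was -0.61, against 0.13 over all genes.

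The second comparison asks what IL-3 did on top of RANKL in Stat5fl/fl cells. *Cish*, *Socs2* and *Socs3* were at least 2-fold higher with RANKL + IL-3 than with RANKL alone, and 0 members were lower. Among all genes, 6.11% were at least 2-fold higher and 3.47% lower. The log2 ratios were 3.87 for *Cish*, the 26th highest of all genes, 2.68 for *Socs2*, the 78th highest, and 1.27 for *Socs3*, the 444th highest. By FPKM, *Cish* was 212-fold higher with IL-3 (interval 96.3 to 695), a wide interval because only about 5 fragments lie behind the RANKL value. *Socs2* was 15.5-fold higher (11.3 to 21.8) and *Socs3* 2.53-fold higher (2.36 to 2.71). *Socs1* was again just outside the threshold, with a log2 ratio of 0.92 and a ratio by FPKM of 2.04 (1.76 to 2.38), since the 1 FPKM added before the log pulls it below 2-fold. *Socs6* had a log2 ratio of 0.33, *Socs4* and *Socs7* both of -0.36 and *Socs5* of -0.49. The median of the 8 was 0.63, against -0.15 over all genes.

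The third comparison asks what RANKL did on top of M-CSF in Stat5fl/fl cells, and here a different pair of members stood out. *Socs3* and *Socs1* were at least 2-fold higher with RANKL than with M-CSF and 0 members were lower, while among all genes 5.44% were at least 2-fold higher and 6.88% lower. *Socs3* had a log2 ratio of 2.63, the 55th highest, and *Socs1* of 1.77, the 162nd highest. By FPKM, *Socs3* was 10.8-fold higher with RANKL (8.80 to 13.6) and *Socs1* 5.85-fold higher (4.15 to 8.26). *Cish* had a log2 ratio of -0.01 and was near its floor in both libraries. *Socs2* was 2.22-fold higher by FPKM (1.25 to 3.94), from about 41 fragments with RANKL and 20 with M-CSF, but its log2 ratio on the FPKM + 1 scale was 0.33. *Socs4*, *Socs7*, *Socs6* and *Socs5* had log2 ratios of 0.38, 0.28, 0.08 and -0.06. The median of the 8 was 0.31, against 0.14 over all genes.

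**Figure D3:**
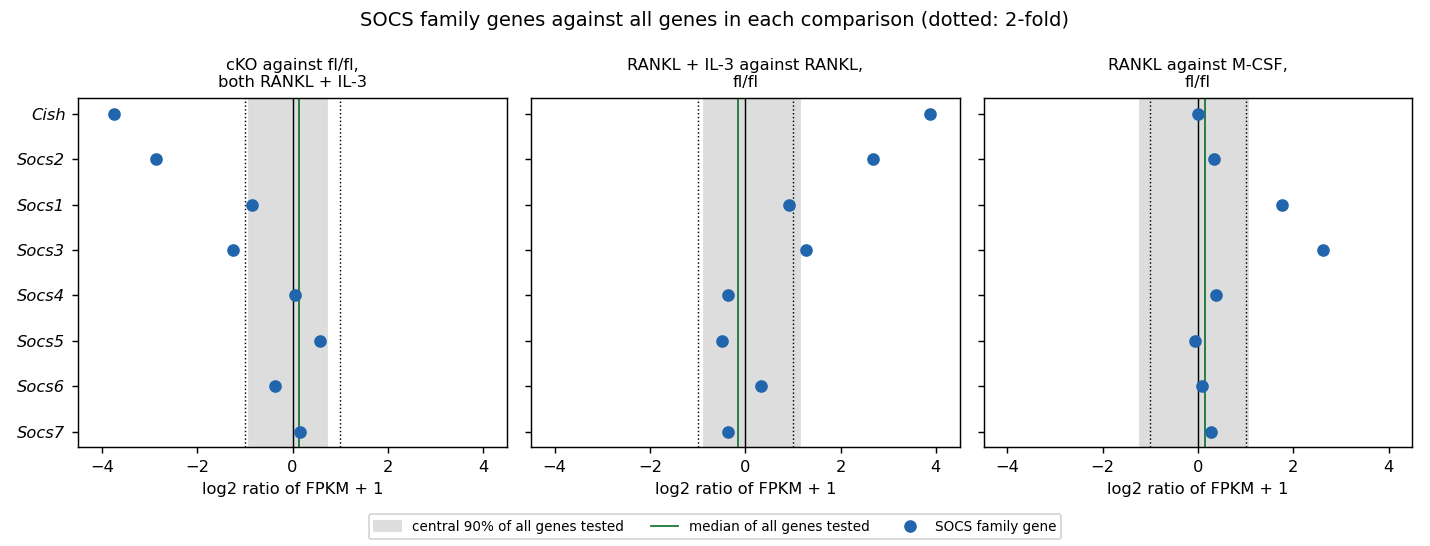
Log2 ratios of FPKM + 1 of the SOCS family genes in the 3 comparisons. The grey band holds the central 90% of all 10763 genes, the green line their median, and dotted lines mark 2-fold. *Cish*, *Socs2* and *Socs3* lie outside the band to the left in the cKO comparison and to the right in the IL-3 comparison, and *Socs3* and *Socs1* to the right in the RANKL comparison.

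The 3 comparisons share libraries. The Stat5fl/fl library of RANKL + IL-3 is the denominator of the cKO comparison and the numerator of the IL-3 comparison, so an unusual value in it would give opposite signs in the 2 comparisons. The members can therefore be separated only as a description. A total of 409 of 10763 genes (3.80%) passed the 2-fold threshold upwards with IL-3 and downwards in cKO, among them 3 of the 8 members, *Cish*, *Socs2* and *Socs3*. *Socs1* fell short of both thresholds with the same signs, and *Socs4* to *Socs7* did not reach 2-fold in any comparison. Set side by side, the cKO library and the Stat5fl/fl library with RANKL gave nearly the same FPKM for *Socs3*, 12.4 against 12.1 (ratio 1.02, interval 0.936 to 1.11), and for *Socs1*, 6.07 against 5.79 (ratio 1.05, interval 0.880 to 1.25). *Cish* and *Socs2* were low in both, at 0.158 against 0.069 FPKM and 0.412 against 0.597 FPKM, and the intervals of these ratios, 0.836 to 8.95 and 0.426 to 1.13, include 1. The levels of these 4 members in the cKO library with IL-3 thus lay at those of the Stat5fl/fl library without IL-3, as far as counting error can tell. What IL-3 did within cKO cells was not measured.

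*Socs1* differed by transcript. The table lists NM_009896 and NM_001271603, which in the matching GENCODE models share their first exon and differ in where exon 2 begins, 120 bases further upstream in NM_001271603. NM_009896 was at 3.09 FPKM in the cKO library, against 9.28, 4.37 and 0.806 FPKM in the Stat5fl/fl libraries of RANKL + IL-3, RANKL and M-CSF. NM_001271603 was at 2.98 FPKM in the cKO library, against 2.54, 1.42 and 0.185 FPKM. NM_009896 alone had a log2 ratio of -1.33 in the cKO comparison and 0.94 in the IL-3 comparison, and NM_001271603 of 0.17 and 0.55. NM_001271603 made up 49.1% of *Socs1* in the cKO library, against 21.4%, 24.5% and 18.7% in those Stat5fl/fl libraries. These shares are estimates by the authors' software from reads that mostly fall in shared sequence, and the files hold no error for them.

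**Figure D4:**
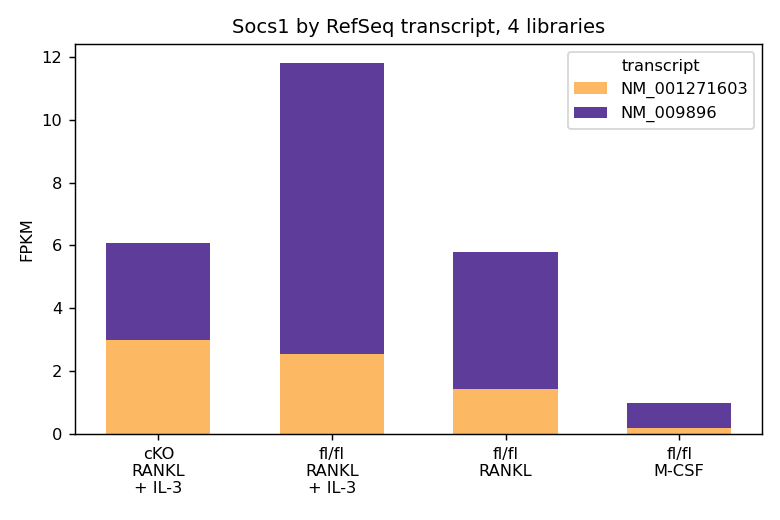
FPKM of *Socs1* in each library, stacked by RefSeq transcript. NM_001271603 reaches 2.98 FPKM in the cKO library and 2.54 FPKM in Stat5fl/fl cells given RANKL + IL-3, while NM_009896 is at 3.09 FPKM in the cKO library and 9.28 FPKM in the Stat5fl/fl library.

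The partners through which the SOCS box acts were all measured. Of 4 ligase subunits, 0 were 2-fold apart in any of the 3 comparisons, which is near the background, since most of all genes were within 2-fold (4.28% were lower and 2.11% higher in cKO). *Tceb1* (elongin C) was at 51.8 FPKM in the cKO library, against 46.6, 46.6 and 52.9 FPKM in the Stat5fl/fl libraries of RANKL + IL-3, RANKL and M-CSF. *Tceb2* (elongin B) was at 276 FPKM in the cKO library, against 269, 256 and 253 FPKM. *Rnf7* was at 91.7 FPKM in the cKO library, against 70.0, 83.4 and 69.2 FPKM, and *Cul5* at 8.31 FPKM, against 6.89, 8.83 and 6.94 FPKM. Of 26 other genes with a SOCS box, 14 were compared, and *Asb4* and *Spsb4* were 2-fold lower in cKO and 2-fold higher with IL-3. Both were low, *Asb4* at 0.543 FPKM in the cKO library, against 2.10, 0.219 and 1.70 FPKM in the 3 Stat5fl/fl libraries. *Spsb4* was at 0.127 FPKM in the cKO library, against 1.93, 0.279 and 1.08 FPKM. *Asb4* and *Spsb2* were 2-fold lower with RANKL than with M-CSF. Among all genes, 6.11% were higher with IL-3 and 6.88% lower with RANKL. The median log2 ratios of the 14 were -0.05 in the cKO comparison, -0.06 in the IL-3 comparison and 0.03 in the RANKL comparison. Over all genes they were 0.13, -0.15 and 0.14.

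For other inhibitors of cytokine signalling the counts were also near the background. Of 16, which include the phosphatases *Ptpn1*, *Ptpn2* and *Ptpn6*, the PIAS genes, *Cbl* and *Usp18*, 0 were 2-fold apart in any comparison, beside 4.28% of all genes lower and 2.11% higher in cKO, 6.11% higher and 3.47% lower with IL-3, and 5.44% higher and 6.88% lower with RANKL. Their median log2 ratio was 0.03 in the cKO comparison, -0.10 in the IL-3 comparison and -0.01 in the RANKL comparison. *Ptpn1*, which dephosphorylates JAK2 and TYK2, had the lowest log2 ratio of the list in cKO, -0.80, at 21.1 FPKM against 37.4 FPKM in Stat5fl/fl cells given RANKL + IL-3.

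Among the kinases and transcription factors that the family acts on, 10 of 11 JAK and STAT genes were compared. On the FPKM + 1 scale 0 were 2-fold apart with IL-3, beside 6.11% of all genes higher and 3.47% lower. In the cKO comparison *Stat5a* and *Stat5b* were lower, as deleted, and 0 others were 2-fold apart. Among all genes, 4.28% were lower and 2.11% higher in cKO. Beyond those deleted genes, *Jak2*, the kinase bound to the IL-3 receptor beta chain, was at 5.62 FPKM in the cKO library, against 8.19, 5.29 and 6.62 FPKM in the Stat5fl/fl libraries of RANKL + IL-3, RANKL and M-CSF. *Jak1*, *Jak3* and *Tyk2* had log2 ratios of -0.23, 0.15 and -0.30 in the cKO comparison. *Stat3* had -0.33 and *Stat6* had 0.03. *Stat2*, which acts in type I interferon signalling, was 2-fold lower with RANKL, at 6.37 FPKM against 15.1 FPKM with M-CSF. With RANKL + IL-3 it was at 13.4 FPKM in Stat5fl/fl cells and 11.7 FPKM in the cKO library. Its log2 ratio with IL-3, 0.97, was the highest of the list and just under the threshold. As with *Socs1*, the 1 FPKM added before the log pulls it below 2-fold. *Stat4* stayed under 1 FPKM in all 4 libraries.

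Of 18 cytokine receptor genes compared, 2 were 2-fold lower and 1 higher in cKO, and 4 were 2-fold higher and 1 lower with IL-3. Among all genes, 4.28% were lower and 2.11% higher in cKO, and 6.11% higher and 3.47% lower with IL-3. The median log2 ratio of the 18 was -0.41 in the cKO and 0.33 in the IL-3 comparison, against 0.13 and -0.15 over all genes. *Csf2rb*, the shared beta chain of the receptors for IL-3 and GM-CSF, was at 41.3 FPKM in the cKO library, against 165 FPKM with RANKL + IL-3, 64.2 FPKM with RANKL and 32.2 FPKM with M-CSF in Stat5fl/fl cells. *Il4ra*, the IL-4 receptor alpha chain, was at 9.20 FPKM in the cKO library, against 30.9, 6.64 and 20.3 FPKM. *Il10ra* and *Il13ra1* were the other 2 that were higher with IL-3. *Il3ra*, the alpha chain of the IL-3 receptor, stayed between 10.5 and 17.0 FPKM. *Ghr*, the growth hormone receptor that SOCS2 restrains, ran the other way, at 1.28 FPKM in the cKO library, against 0.132, 2.26 and 0.0756 FPKM in the Stat5fl/fl libraries of RANKL + IL-3, RANKL and M-CSF. With RANKL against M-CSF, 3 receptor genes were 2-fold higher and 4 lower, beside 5.44% of all genes higher and 6.88% lower. The median log2 ratio of the 18 there was -0.46, against 0.14 over all genes.

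The list of STAT5 targets described in other cell types gave a mixed picture. Of 13 compared, 6 were at least 2-fold lower in cKO and 6 at least 2-fold higher with IL-3, *Pim1*, *Osm*, *Bcl2l1*, *Ccnd2*, *Id1* and *Igf1* being counted both times. Among all genes, 4.28% were lower and 2.11% higher in cKO, and 6.11% higher and 3.47% lower with IL-3. *Pim1*, a survival kinase, was at 7.72 FPKM in the cKO library, against 40.4, 6.79 and 7.17 FPKM in the Stat5fl/fl libraries of RANKL + IL-3, RANKL and M-CSF. *Osm*, which encodes the cytokine oncostatin M, was at 2.77 FPKM in the cKO library, against 23.8, 3.27 and 5.09 FPKM. These 2 genes were high in the same library as *Cish* and *Socs2* and low in the other 3. *Bcl2l1*, a survival factor, had a different course, at 19.3 FPKM in the cKO library, against 82.5, 7.90 and 81.9 FPKM, so it was also high with M-CSF. *Bcl6*, a transcriptional repressor that STAT5 is known to silence in lymphocytes, was the 1 listed target that was 2-fold higher in cKO and 2-fold lower with IL-3, at 12.96 FPKM in the cKO library, against 3.76, 9.41 and 19.4 FPKM. The median log2 ratio of the 13 was -0.39 in the cKO comparison, 0.80 in the IL-3 comparison and -0.89 in the RANKL comparison. Over all genes it was 0.13, -0.15 and 0.14.

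Of 8 STAT3 targets, 2 were 2-fold lower in cKO, *Il4ra* and *Il1rn*, and 4 were 2-fold higher with IL-3. Among all genes, 4.28% were lower in cKO and 6.11% higher with IL-3. *Il1rn*, which encodes the IL-1 receptor antagonist, was at 33.0 FPKM in the cKO library, against 139, 36.7 and 12.5 FPKM in the Stat5fl/fl libraries of RANKL + IL-3, RANKL and M-CSF, and so was high in the library in which *Socs3* was high and, like *Socs3*, higher with RANKL than with M-CSF. Between RANKL and M-CSF, 3 of the 8 were 2-fold higher and 2 lower, beside 5.44% of all genes higher and 6.88% lower.

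**Figure D5:**
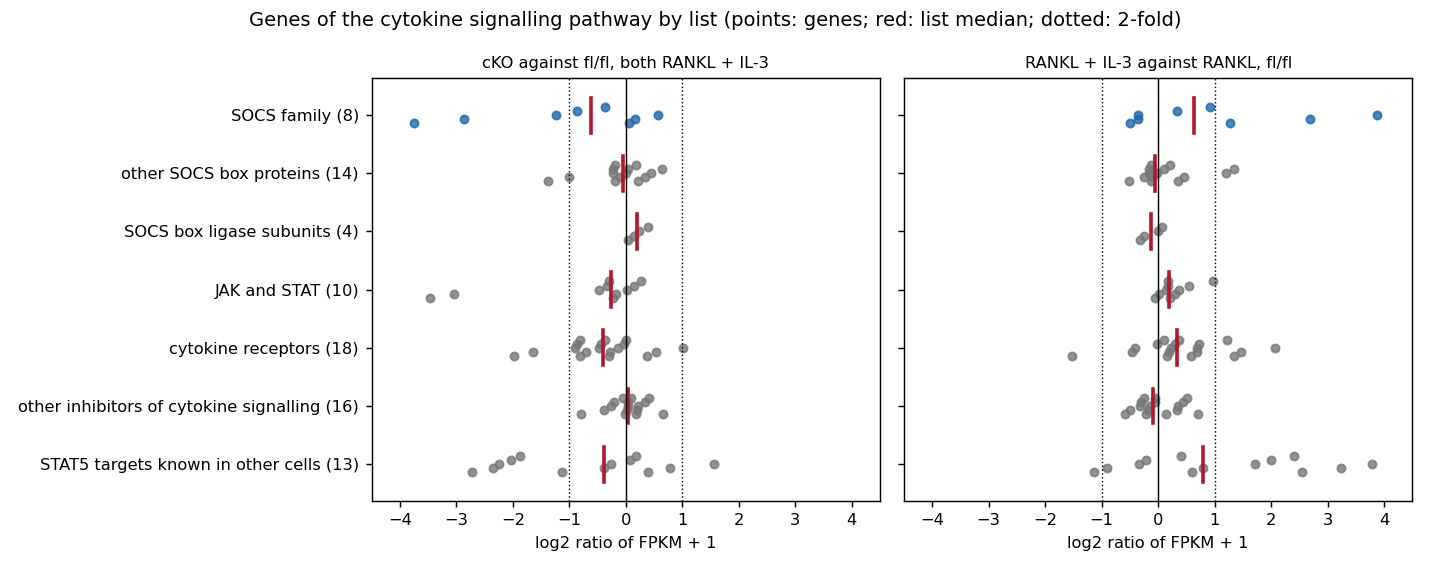
Log2 ratios of FPKM + 1 for genes of 7 lists (number compared in brackets), in the cKO comparison and the IL-3 comparison. Points are genes, red bars list medians and dotted lines 2-fold. The SOCS family spans -3.76 to 0.57 in the cKO comparison and -0.49 to 3.87 in the IL-3 comparison, while the 4 ligase subunits and the 16 other inhibitors, like most genes, are within 2-fold.

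The genes whose course over the 4 libraries was most like that of a member were ranked by the distance between centred log2(FPKM + 1) values, over 10188 genes. They were chosen for likeness, so their values are a description. The 5 nearest to *Cish* were *Bc1*, *Retnla*, *Itgax*, *F10* and *Ccl17*, at distances of 0.12 to 0.55. *Bc1*, a short non-coding RNA for which FPKM estimates are unstable, was at 0 in the cKO library, against 12.3, 0 and 0 FPKM in the Stat5fl/fl libraries of RANKL + IL-3, RANKL and M-CSF. *Retnla*, a secreted product of alternatively activated macrophages, was at 0.0665 FPKM in the cKO library, against 11.3, 0.035 and 0 FPKM in the Stat5fl/fl libraries of RANKL + IL-3, RANKL and M-CSF. The 5 nearest to *Socs2* were *Il1a*, *F7*, *Itgax*, *Plxdc2* and *Slc7a2*, at distances of 0.21 to 0.52. *F7* and *F10*, which encode coagulation factors VII and X, were at 0.515 and 0.725 FPKM in the cKO library, against 11.3 and 21.5 FPKM in Stat5fl/fl cells given RANKL + IL-3. The 5 nearest to *Socs1* were *Abcg1*, *Gstt4*, *Adora2b*, *Cd274* and *Cdc42ep2*, at 0.35 to 0.63. Those nearest to *Socs3*, at 0.72 to 1.02, were *Abcg1*, *Ralgds*, *Cd274*, *Socs1* and *Upp1*, so that *Socs1* was the fourth nearest gene to *Socs3*. *Cd274*, which encodes PD-L1, was at 5.53 FPKM in the cKO library, against 18.6, 8.93 and 1.37 FPKM. *Socs4* to *Socs7* spanned less than 1 on the log2 scale and were not ranked.

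Some markers of other cells also differed between the libraries, not all in the direction of these members. *Itgax*, the integrin CD11c of dendritic cells, was at 9.95 FPKM in the cKO library, against 99.7, 10.2 and 7.78 FPKM in the Stat5fl/fl libraries of RANKL + IL-3, RANKL and M-CSF. Of 9 dendritic cell markers 6 were compared, of which 5 were at least 2-fold lower in cKO and 5 at least 2-fold higher with IL-3. Among all genes, 4.28% were lower in cKO and 6.11% higher with IL-3. The 9 dendritic cell markers summed to 164 FPKM in the cKO library, against 682, 151 and 226 FPKM. The defining markers *Flt3*, *Zbtb46* and *Ccr7* stayed under 1 FPKM in all 4 libraries. Of 9 osteoclast markers 7 were compared, of which 5 were 2-fold higher in cKO, 7 were 2-fold lower when IL-3 was added and 7 were 2-fold higher after RANKL. The shares of all genes were 2.11% higher in cKO, 3.47% lower with IL-3 and 5.44% higher with RANKL. The 9 osteoclast markers summed to 518 FPKM in the cKO library, against 140, 1276 and 44.5 FPKM, with *Calcr* at 0 throughout. The 4 macrophage markers summed to 12377 FPKM in the cKO library, against 17398, 8264 and 21749 FPKM. The 7 basophil and mast cell markers summed to at most 3.54 FPKM, with *Fcer1a* at 0 in all libraries, and the 2 that were compared ran in opposite directions. *Mcpt8*, a basophil protease, was at 0.41 FPKM in the cKO library, against 1.61, 0 and 0.27 FPKM, and *Gata2*, a transcription factor of early blood cells, mast cells and basophils, was at 2.75 FPKM in the cKO library, against 0.588, 2.15 and 0.263 FPKM. The part of the dendritic cell, osteoclast, macrophage and basophil or mast cell markers in the course of *Cish*, *Socs1*, *Socs2* and *Socs3* was not tested. The 4 neutrophil markers summed to between 402 and 732 FPKM per library and were within 2-fold in every comparison. The erythroid and stromal markers summed to at most 0.36 and 1.18 FPKM per library.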

How the data were processed

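TruSeq RNA libraries of BMMs were sequenced on a HiSeq2000. Per the labels and methods, the authors used TopHat2 2.0.13 for alignment to mm10 and deposited FPKM values per RefSeq transcript, estimated with Cufflinks 2.2.1. The unit is not named in the table and was inferred from the software and the values. Strand settings and further options were not given in the sources used here.

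Transcripts were summed per gene ID. Genes of at least 1 FPKM in at least 1 library were compared as log2(FPKM + 1), which understates changes of low genes, and small RNA genes recognisable by symbol (46 of those reaching the minimum) were left out, while others such as *Bc1* were kept. Genes at least 2-fold apart were counted. With 1 library per condition, no test was run. Depth was estimated from single-transcript genes of at least 3000 nt, where FPKM times length falls on whole fragments: of the low values, 72.1% to 74.1% were no more than 0.2 steps away from a whole number (40% if even). Members' lengths were GENCODE M21 exons clipped to the RefSeq gene span, and their intervals are exact Poisson (levels) or binomial (ratios), at 95%. The ratio step was tested on simulated data. Members and the 18 lists (9 of the pathway, 9 of markers, 162 of 164 entries found) were chosen with earlier results of these data known. Some results on listed genes are not reported here. Named were all members, JAK, STAT and ligase genes, up to 4 genes per other list with the largest log2 ratios among those 2-fold apart, the 5 nearest genes per member, and some genes picked after their values were seen, such as *Il3ra*, *Ptpn1* and *Xist*. Alternatives were 0.1 FPKM added, median-ratio and upper-quartile scaling, the most abundant transcript, thresholds of 1.5-fold and 4-fold, a minimum of 5 FPKM and no minimum. Scripts ran in Python 3.11.15 with matplotlib 3.10.9, scipy 1.17.1, pandas 2.3.3 and numpy 2.4.6.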

Additional observations from a re-analysis of the deposited data

How the results depend on the processing

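No paired analysis was possible because each condition had 1 library, and for the same reason no library could be left out. Counts of members 2-fold apart stayed within 1.5 times under the 8 alternatives, except that 1 member (*Socs3*) was 4-fold higher with RANKL against M-CSF. With the threshold at 4-fold, *Cish* and *Socs2* remained in the cKO and IL-3 comparisons. *Socs1* joined them and *Socs3* as lower in cKO by the most abundant transcript (log2 ratio -1.33) and at 1.5-fold, and as higher with IL-3 at 1.5-fold, with 0.1 FPKM added and after median-ratio scaling. Its log2 ratio with IL-3 ranged from 0.92 to 1.08. Of 24 log2 ratios of members, 22 kept their sign under every scaling, pseudocount and transcript choice, and the exceptions after median-ratio scaling were *Socs4* in cKO (-0.06) and *Socs6* with RANKL (-0.07). With 0.1 FPKM added, the log2 ratios of *Cish* were -5.84 in cKO and 6.45 with IL-3, and those of *Socs2* -4.19 and 3.74. Of 96 such values, 77 differed from the main value by less than the counting error. This error was the mean distance of the interval limits from their midpoint, for the plain FPKM ratio in log2 units. Of the values at least 2-fold apart in the main setting, 0 reversed. Median-ratio scaling removes the shift of the all-gene medians, 0.13 in the cKO, -0.15 in the IL-3 and 0.14 in the RANKL comparison. Of all genes, it gave 818 higher and 270 lower with IL-3 (658 and 373 without it) and 435 higher and 937 lower with RANKL (585 and 740 without it). Adding 0.1 FPKM gave 379 genes higher in cKO (227 in the main setting) and 560 lower with IL-3 (373). At 1.5-fold, 907 genes were higher and 957 lower in cKO, 1303 and 1371 with IL-3, and 1680 and 1491 with RANKL. At 4-fold these counts were 34 and 108, 175 and 74, and 124 and 162. Depth limits *Cish* and *Socs2* outside the Stat5fl/fl library of RANKL + IL-3, where they rest on 5 to 41 fragments.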

Other observations

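*Usp18*, which blocks type I interferon signalling at its receptor and lies in the list of other inhibitors, was highest in the cKO library, at 17.5 FPKM, against 10.7, 6.21 and 6.52 FPKM in the Stat5fl/fl libraries of RANKL + IL-3, RANKL and M-CSF. *Gbp2*, an interferon-induced GTPase, was at 3.31 FPKM in the cKO library, against 1.90, 1.58 and 0.862 FPKM. Neither gene was 2-fold apart in the cKO comparison, with log2 ratios of 0.66 and 0.57, and *Irf1*, *Psmb8*, *Psmb9* and *Tap1* of the same interferon response had log2 ratios of 0.24, 0.15, -0.04 and 0.00. *Usp18* and *Gbp2* were picked after their values were seen.

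*Socs5* and *Bcl6* were both lowest in Stat5fl/fl cells given RANKL + IL-3, at 4.61 and 3.76 FPKM, against at least 6.89 and 9.41 FPKM in the other 3 libraries. *Socs5* was within 2-fold in every comparison.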
